A study of Homo sapiens with 34 samples.

Results

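CD43, the sialoglycoprotein leukosialin encoded by SPN, is carried by early blood cells, and sorting on it divided differentiating H1 cultures into a blood fraction and the remaining, largely mesenchymal and endothelial, cells. The comparison described here is the change of the CD43 difference between day 6 and day 9 of differentiation, that is, CD43+ minus CD43- cells on day 9, less the same difference on day 6. It was computed for every gene of the expression table from 12 of the 34 samples of the series, 3 in each of 4 populations. The same change equals the step of CD43+ cells from day 6 to day 9 less the step of CD43- cells, so that each gene was also asked which side had moved. All 12 samples came from H1, an established human embryonic stem cell line, grown as embryoid bodies and then in planar culture in defined conditions. BMP4 and VEGF were given to start mesoderm formation, VEGF was the only growth factor from day 3 on by the labels, and no haematopoietic cytokine was added to any group. CD43- and CD43+ cells were sorted on days 6 and 9, and the replicates were described as independent biological replicates, all of this single line.

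Blood formation in the embryo begins with a primitive wave in the yolk sac, in which haemogenic endothelial cells release red cell precursors, megakaryocytes and macrophages, and is followed by waves that add granulocytes and mast cells. The transcription factor GATA1 governs red cell and megakaryocyte genes and KLF1 red cell genes, while SPI1 (PU.1), the C/EBP factors and IRF8 govern granulocyte and macrophage genes. Cells leaving the endothelium switch off endothelial receptors and junction proteins as they take up a blood programme.

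Expression was given as tag counts normalized for GC content, and every sample runs over the same set of numbers. Each sample summed to 17856940 with a median of 197 over 20255 genes, 1292 genes were listed at 0 and 10 shared a maximum of 90700. Values are thus nearly ranks, no read depth can be read from it, and a gene already at 90700 cannot be seen to rise. Differences are given on the log2(value + 1) scale, which understates the change of low genes. A gene was called when limma gave a Benjamini-Hochberg adjusted p below 0.05 over the 19788 genes tested and a difference above 4-fold (above 2 on the log2 scale). Replicates of a population correlated across genes with Pearson's r from 0.966 to 0.985. SPN itself followed the sort. On day 6 it stood at 8780, 6791 and 5979 in the CD43+ samples against 28, 19 and 49 in the CD43- samples. The day 9 values were 9460, 8946 and 9202 against 18, 32 and 19. The change of its difference did not pass the test (change 0.78, standard error 0.52, adjusted p = 0.332, limma). The summed level of 14 blood cell markers was 138495 to 154119 in day 6 CD43+ cells against 2348 to 2901 in CD43- cells, and 179004 to 255178 against 1558 to 2211 on day 9. A large part of each CD43+ sum was the globin gene HBE1, which stood at 90700 in every CD43+ sample of both days. Taken singly, 12 of the 14 markers were called higher in CD43+ cells on day 6 and 14 on day 9. SPN and the marker sums thus separated the fractions on both days, while no blood marker was at 0 in all 3 samples of either CD43- population.

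In all, 1463 genes changed their CD43 difference, 7.39% of those tested. The difference went up in favour of CD43+ cells in 635 of them (3.21% of all genes tested) and down in 828 (4.18%), beside a median change of 0.05 over all genes (median step 0.01 in CD43+ and -0.03 in CD43- cells). At any size of effect, 3606 genes passed the adjusted p. Of the called genes, 1298 (88.7%) were protein-coding, against 82.5% of all genes tested. In these bulk samples, fewer cells of a type and less RNA per cell cannot be told apart.

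The CD43+ side was the one that moved in most of the genes. Within CD43+ cells, 1490 genes passed both thresholds from day 6 to day 9 (7.53% of genes tested: 704 higher, 3.56%, and 786 lower, 3.97%). Within CD43- cells, 347 did (1.75%: 217 higher, 1.10%, and 130 lower, 0.657%). Of the 1463 genes with a changed difference, 953 (65.1%) had a called step in CD43+ cells only, 133 (9.09%) in CD43- cells only, 14 in both in opposite directions and 10 in both in the same direction. The remaining 353 (24.1%) had no step called. All 353 had steps of opposite sign in the 2 fractions, which the thresholds make nearly certain. Steps of the same sign that each stay within 4-fold cannot differ by more than 4-fold. The CD43+ step was the larger in 244 of them. At any size, a step passed the adjusted p in 270 of the 353, the CD43+ step in 242 and the CD43- step in 61. Over all 1463 genes the CD43+ step was the larger in 1208 (82.6%), and its median share of the summed size of both steps was 82.3%. The classes reuse the samples of the comparison itself and are given as a description.

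**Figure D1:**
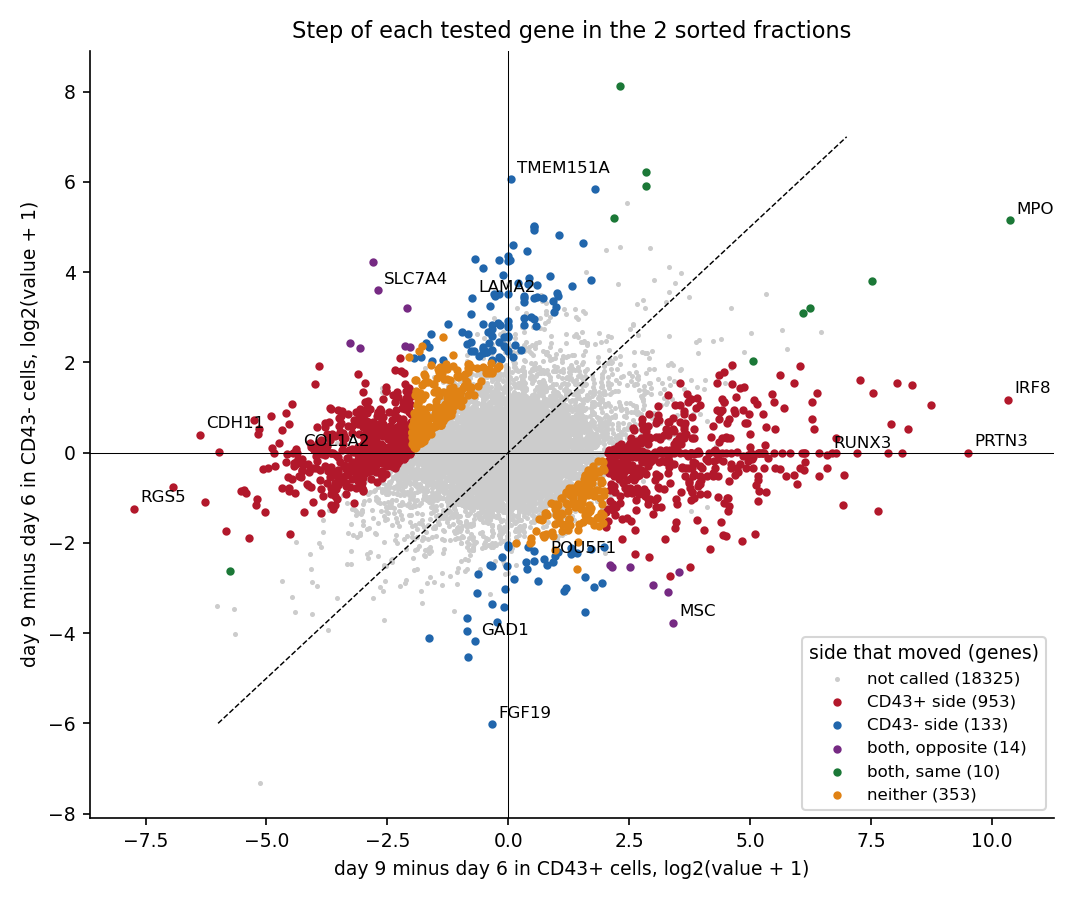
Each point is 1 of the 19788 genes tested, with its step from day 6 to day 9 in CD43+ cells on the horizontal axis and in CD43- cells on the vertical axis, both as differences of mean log2(value + 1). Colours give the side that moved for genes with a called change and grey marks genes not called. On the dashed line both steps are equal and the CD43 difference does not change. The 953 genes of the CD43+ side spread along the horizontal axis, out to IRF8 and PRTN3 on the right and RGS5 on the left, and the 133 genes of the CD43- side lie above and below the centre.

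Most changes enlarged a difference. Among genes that went up, the day 9 difference was the larger in 512, the day 6 difference was the larger in 86, and 12 turned from lower in CD43+ cells on day 6 to higher on day 9 with both days called. Among genes that went down these numbers were 747, 52 and 2, and 25 and 27 genes matched none of the 3 descriptions. The genes that turned upwards included IRF8, RNASE2, CLEC1B and THBS1. Within the CD43+ side, which holds genes chosen for a called CD43+ step and no called CD43- step, the median level of the 446 genes that went up was 2.60 in CD43+ samples of day 6 and 6.69 in those of day 9, beside 2.16 and 1.83 in the CD43- samples (log2 of value + 1). The 507 genes of that side that went down had a median of 6.85 in day 6 CD43+ cells and 3.69 on day 9, beside 8.17 and 8.22 in CD43- cells. Over all 635 genes that went up the median was 2.90 and 6.46 in CD43+ cells and 2.93 and 2.04 in CD43- cells, and over all 828 that went down it was 5.99 and 3.54 in CD43+ cells and 7.13 and 7.82 in CD43- cells. No CD43 difference was called on day 6 in 320 of the 446 and in 312 of the 507.

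On day 9, 372 of the 446 genes were already called higher in CD43+ than in CD43- cells, and 441 of the 507 lower. Day 12 samples were not among the 12 compared, though they shared the fit, its filter and its estimate of the spread. Of the genes tested, 1913 reached a value of 10 in fewer than 3 of the 12 samples and entered through other samples. With the filter set on the 12 samples, 552 genes went up and 800 down. As most of the 446 and 507 genes were already called on day 9, the day 12 shares are a description and no independent support. On day 12, 379 of the 446 genes (85.0%) were called higher in CD43+ than in CD43- cells, against 11.8% of all genes tested, and 9 were called lower. Of the 507 genes, 415 (81.9%) were called lower on day 12, against 14.4% of all genes tested, and 1 was called higher. Of the 92 genes that went down through the CD43- side, 73 (79.3%) were also lower on day 12. The 41 that went up through that side were divided, with 13 higher and 3 lower.

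**Figure D2:**
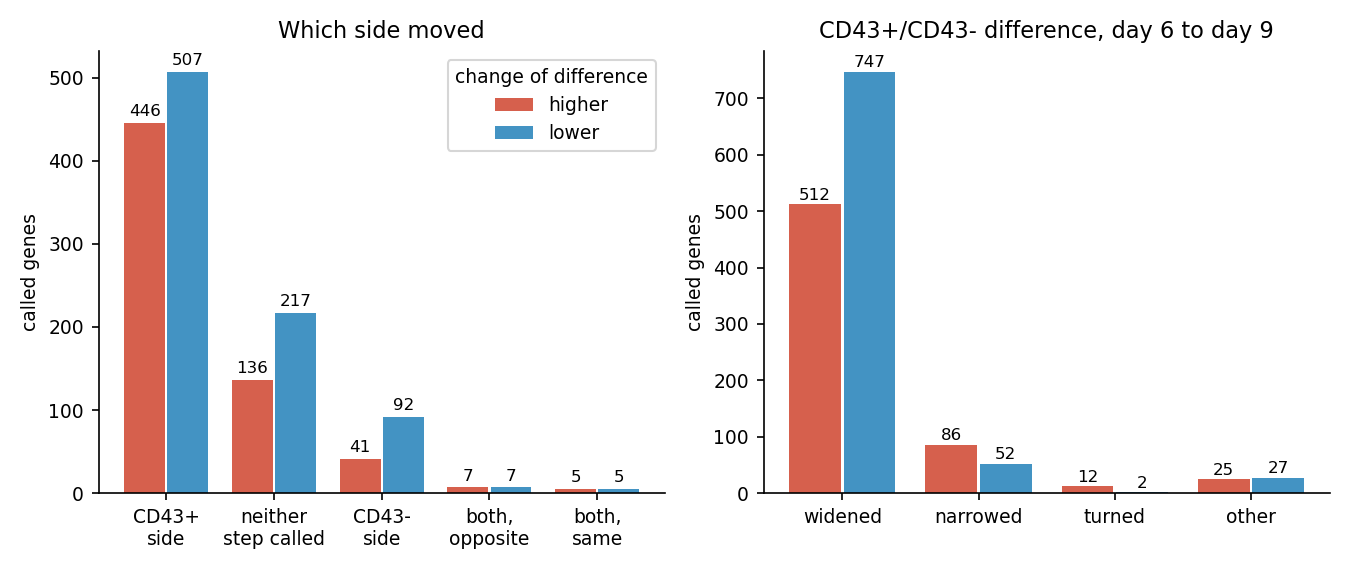
The left panel counts called genes by the side that moved and the right panel by what became of the difference between fractions by day 9, with genes that went up in red and genes that went down in blue. The CD43+ side holds 446 and 507 genes against 41 and 92 for the CD43- side, and the difference was the larger on day 9 in 512 and 747 genes.

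The largest rises on the CD43+ side were in genes of granulocytes, macrophages and platelets. By the rule of choice these were PRTN3, IRF8, RNASE2, PF4V1, FGD2 and CLC. PRTN3 encodes proteinase 3, a serine protease of neutrophil azurophil granules (chr19:840960-848175, GRCh38, as are the positions that follow). Its values were 697, 1677 and 1010 in day 9 CD43+ cells, against 0, 0 and 2 in day 6 CD43+ cells, while CD43- cells had 0, 1 and 0 on day 6 and 0, 0 and 1 on day 9. Only the day 9 CD43+ samples stood above the bottom of the scale, and they did not overlap the other 9 (adjusted p of the change = 0.000408, limma). On day 12 the CD43+ samples stood at 29015, 29015 and 37178 and the CD43- samples at 0, 22 and 1172.

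IRF8, a transcription factor of macrophage, dendritic cell and eosinophil development (chr16:85898803-85922609), was at 1179, 1368 and 1333 in day 9 CD43+ cells and was listed at 0 in all 3 day 6 CD43+ samples. CD43- cells had 10, 34 and 6 on day 6 and 32, 19 and 46 on day 9. The difference between the fractions thus turned from lower to higher in CD43+ cells (adjusted p = 9.67e-07 for the change, 6.87e-11 for the CD43+ step and 0.405 for the CD43- step, limma). No fold is given for a step that starts from values listed at 0.

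RNASE2 encodes the eosinophil-derived neurotoxin, a granule ribonuclease (chr14:20955452-20956436). It was listed at 0 in the day 6 CD43+ samples and reached 198, 186 and 212 on day 9, while CD43- cells had 6, 4 and 16 on day 6 and 1, 4 and 3 on day 9. CLC, the gene of galectin-10 of eosinophils and basophils (chr19:39731250-39738028), stood at 214, 404 and 142 in day 9 CD43+ cells and was listed at 0 in the other 9 samples. FGD2, an exchange factor for the GTPase CDC42 (chr6:37005646-37029070), rose to 190, 200 and 188 from 1, 0 and 1 in CD43+ cells. In CD43- cells FGD2 was at 0, 1 and 10 on day 6 and 0, 1 and 0 on day 9. The adjusted p of the change was 3.46e-06 for RNASE2, 1.26e-05 for CLC and 4.48e-06 for FGD2 (limma), and in each gene the day 9 CD43+ samples lay above all others. RNASE2 resembles its neighbour RNASE3, and PF4V1 resembles PF4, so that the division of reads within each pair is uncertain.

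To set sequence beside these values, the 250 bases upstream of the transcription start are shown for the genes with the largest changes on the CD43+ side in each direction that have an entry in the RefSeq promoter table (GRCh38.p14). RefSeq starts can differ from the gene bounds given with each gene, which come from GENCODE. The windows of IRF8 and HAPLN1 lie wholly inside those bounds. They thus precede a start internal to the gene and not its outermost 5′ end. The sequences are written 5′ to 3′ on the strand of the gene, and capitals mark any match, on either strand, to 3 short motifs, namely GAGGAA, known for binding PU.1 and other ETS factors, AGATAA, known for binding by factors such as GATA1, and TGTGGT, known for binding RUNX factors. The promoters of PRTN3 (chr19:840749-840998, plus strand) and IRF8 (chr16:85902580-85902829, plus strand) belong to genes that rose.
PRTN3: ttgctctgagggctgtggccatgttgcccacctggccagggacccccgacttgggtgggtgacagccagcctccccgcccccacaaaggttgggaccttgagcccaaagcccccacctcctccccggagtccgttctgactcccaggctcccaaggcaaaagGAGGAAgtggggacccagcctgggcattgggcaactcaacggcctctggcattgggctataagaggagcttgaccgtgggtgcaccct
IRF8: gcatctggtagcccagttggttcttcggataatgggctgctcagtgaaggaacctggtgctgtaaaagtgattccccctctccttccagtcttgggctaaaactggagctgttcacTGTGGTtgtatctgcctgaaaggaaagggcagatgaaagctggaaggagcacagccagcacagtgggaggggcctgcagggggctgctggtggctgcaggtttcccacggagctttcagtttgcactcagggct
PRTN3 held a GAGGAA that starts 88 bases before the transcription start, and IRF8 a TGTGGT that starts 134 bases before it. The promoters of RGS5 (chr1:163321736-163321985, minus strand) and HAPLN1 (chr5:83720856-83721105, minus strand) belong to genes that fell.
RGS5: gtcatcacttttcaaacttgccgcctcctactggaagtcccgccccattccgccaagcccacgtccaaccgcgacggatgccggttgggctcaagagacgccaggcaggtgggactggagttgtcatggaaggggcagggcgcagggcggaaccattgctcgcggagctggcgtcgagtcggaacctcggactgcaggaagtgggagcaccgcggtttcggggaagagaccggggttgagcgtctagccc
HAPLN1: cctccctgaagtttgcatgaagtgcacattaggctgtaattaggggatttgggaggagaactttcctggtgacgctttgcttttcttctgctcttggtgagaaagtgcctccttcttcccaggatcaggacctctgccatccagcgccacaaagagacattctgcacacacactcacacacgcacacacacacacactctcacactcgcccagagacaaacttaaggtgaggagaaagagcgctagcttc
No match to any of the 3 motifs was found in these 2 windows. Over windows of the same length, GAGGAA was present in 38.2% of the 283 promoters matched among the 446 genes that went up on the CD43+ side, in 24.9% of the 338 matched among the 507 that went down and in 23.7% of the 12960 matched among all genes tested. TGTGGT was present in 16.96%, 6.51% and 8.39%, and AGATAA in 11.7%, 7.40% and 5.69%. Over all 35116 entries of the table the shares were 23.6% for GAGGAA, 10.98% for TGTGGT and 9.17% for AGATAA. A match is a description of letters and no evidence of binding.

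Azurophil granule genes, a list that also holds the eosinophil gene RNASE2 and its neighbour RNASE3, moved through CD43+ cells. Of 17 tested, 10 went up (58.8%, against 3.21% of all genes), RNASE2 and RNASE3 among them. In each of the 12 fits that left out 1 sample, 8 of the 10 kept the call. With pseudocounts of 0.1 and 10, 6 and 7 of the 10 were called. The median change of the list was 3.42, with a median step of 3.33 in CD43+ cells and 0 in CD43- cells. In CD43- cells 9 of the 17 were at 0 in all 3 samples of day 6, where no fall could be seen, and 6 on day 9. MPO, the myeloperoxidase gene (chr17:58269856-58280935), rose in both fractions. It went from 30, 14 and 10 to 29015, 20412 and 20412 in CD43+ cells (adjusted p = 1.02e-08, limma), and from 0 in all 3 samples to 32, 46 and 28 in CD43- cells (adjusted p = 0.00158). The day 9 CD43- samples thus lay near the day 6 CD43+ samples, and the change favoured CD43+ cells (adjusted p = 0.0103). With a pseudocount of 0.1 that call was lost (change 2.03, adjusted p = 0.512, limma). SRGN, the serglycin core proteoglycan of granules, went from 71, 42 and 46 to 1550, 2054 and 2133 in CD43+ cells, with 20, 14 and 10 on day 6 and 19, 9 and 4 on day 9 in CD43- cells (change 5.77, standard error 1.33, adjusted p = 0.00296). ELANE, the neutrophil elastase gene, was at 2, 6 and 1 in day 9 CD43+ cells, was listed at 0 in the other 9 samples, and was not called (adjusted p = 0.113, and 0.00758 with a pseudocount of 0.1, limma). On day 12 ELANE stood at 1856, 3605 and 3605 in CD43+ cells.

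A list of later neutrophil granule genes, which also holds S100 genes and receptor genes such as FPR1, had 5 of 18 go up (27.8%, against 3.21% of all genes). Its median change was 1.04, and 3 of the 5 were called with a pseudocount of 0.1 and 3 with one of 10. The 5 were S100A8, S100A9, FPR1, CHI3L1 and OLFM4, and the granule genes LTF, LCN2, CAMP, MMP8 and MMP9 were not among them. S100A8, a calcium-binding protein of neutrophils and monocytes, stood at 48, 70 and 101 in day 9 CD43+ cells and was listed at 0 in the other 9 samples (adjusted p = 0.00183, limma). Genes of the phagocyte NADPH oxidase had a median change of 3.53, and NCF1 and CYBB were among those that went up. CYBB was not called when day 6 CD43- replicate 3, day 6 CD43+ replicate 3 or day 9 CD43- replicate 2 was left out (change 3.78 to 4.57 over the 12 fits, 4.10 with all samples). NCF1 has near-identical pseudogenes, which makes its values uncertain.

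Among 16 myeloid transcription factors 7 went up (43.8%, against 3.21% of all genes), all through the CD43+ side, and the list had a median change of 1.72. RUNX3, a RUNX factor of myeloid and lymphoid cells (chr1:24899511-24965121), rose from 22, 28 and 14 to 1966, 1586 and 2880 in CD43+ cells and stayed at 20, 40 and 8 on day 6 and 22, 10 and 27 on day 9 in CD43- cells. The day 6 values of both fractions overlapped, and the day 9 CD43+ samples stood above all others (change 6.64, standard error 0.96, adjusted p = 1.73e-05, limma). CEBPA, needed for granulocyte commitment, rose from 152, 62 and 110 to 1180, 1226 and 1426 in CD43+ cells against 70, 94 and 124 on day 6 and 132, 162 and 134 on day 9 in CD43- cells (change 3.04, standard error 0.34, adjusted p = 5.64e-07). IRF4, IRF5 and CEBPE also went up, with changes of 5.85, 5.02 and 4.49. SPI1 was already present on day 6, at 1553, 1247 and 1332 in CD43+ cells and 10, 8 and 5 in CD43- cells, and its difference did not pass the test (change 0.80, standard error 1.27, adjusted p = 0.726).

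Of 25 monocyte and macrophage genes 12 went up (48%, against 3.21% of all genes), with a median change of 2.25, and 7 of the 12 were called with a pseudocount of 10. C1QC, a chain of complement C1q made by macrophages, was at 6, 2 and 1 in day 6 CD43+ cells and at 204, 295 and 208 on day 9, and was listed at 0 in all 6 CD43- samples (adjusted p = 0.000150, limma). CX3CR1, the fractalkine receptor, rose in CD43+ cells from 19, 6 and 10 to 544, 463 and 387, beside 22, 6 and 10 on day 6 and 10, 32 and 6 on day 9 in CD43- cells (change 5.15, standard error 1.02, adjusted p = 0.000708, and 0.0561 with a pseudocount of 0.1). Its ligand gene CX3CL1 was among the largest falls of the CD43+ side. CX3CL1 went from 106, 176 and 146 to 2, 4 and 6 in CD43+ cells and was at 88, 110 and 40 on day 6 and 176, 76 and 157 on day 9 in CD43- cells (change -5.70, standard error 0.70, adjusted p = 2.34e-06). CD14, a monocyte receptor for lipopolysaccharide, was not called, with 6, 10 and 10 on day 6 and 1, 8 and 17 on day 9 in CD43+ cells (change 1.09, adjusted p = 0.626).

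Among 26 leukocyte integrin and signalling genes 13 went up (50%, against 3.21% of all genes), the median change was 2.20, and all 26 had a positive estimate. Only 8 of the 13 kept the call in each fit that left out 1 sample. PTPRC, the gene of CD45 (chr1:198638671-198757283), went from 8, 1 and 0 to 749, 634 and 698 in CD43+ cells and was at 0, 0 and 2 on day 6 and 4, 2 and 4 on day 9 in CD43- cells. Day 6 samples of both fractions overlapped near 0 and the day 9 CD43+ samples stood apart (change 6.50, standard error 1.30, adjusted p = 0.000744, limma). LCP1, the actin-bundling protein L-plastin, overlapped between the fractions on day 6, at 878, 400 and 422 in CD43+ and 436, 808 and 1068 in CD43- cells, and stood at 10075, 11996 and 10075 and 388, 408 and 310 on day 9 (change 5.31, standard error 0.53, adjusted p = 1.41e-07). KIT, the stem cell factor receptor, went from 464, 374 and 222 to 1991, 2064 and 3108 in CD43+ cells against 416, 328 and 146 on day 6 and 248, 152 and 230 on day 9 in CD43- cells (change 3.19, standard error 0.52, adjusted p = 8.26e-05). Of 18 mast cell, basophil and eosinophil genes 6 went up (33.3%, against 3.21% of all genes), KIT and CLC among them. Of the 6, 3 were called with a pseudocount of 0.1 and 4 with one of 10. PRG3 and EPX of eosinophil granules also went up (changes 5.19 and 4.44). The call of EPX was lost with a pseudocount of 0.1 (adjusted p = 0.0798, limma).

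Megakaryocyte and platelet genes formed another list that moved through CD43+ cells. Of 24 tested 10 went up (41.7%, against 3.21% of all genes), 8 of the 10 kept the call in each fit that left out 1 sample, and the median change was 2.62 (CD43+ step 2.73, CD43- step 0.03). PPBP, the pro-platelet basic protein (chr4:73987038-73988197), rose from 4, 1 and 2 to 999, 652 and 1616 in CD43+ cells beside 1, 0 and 0 on day 6 and 2, 4 and 2 on day 9 in CD43- cells (change 6.86, standard error 1.53, adjusted p = 0.00216, limma; 0.124 with a pseudocount of 0.1). PF4V1, a variant of platelet factor 4 (chr4:73853189-73854155), was at 323, 380 and 359 in day 9 CD43+ cells and at 0, 1 and 0 on day 6, and was listed at 0 in all CD43- samples (adjusted p = 1.39e-08). PF4 rose in CD43+ cells from 138, 120 and 108 to 6818, 5906 and 7330, but CD43- cells also went from 2, 2 and 1 to 10, 17 and 10, and its change did not pass the test (change 3.46, standard error 1.27, adjusted p = 0.0582). PF4 was called with a pseudocount of 10 (change 4.74, adjusted p = 0.000134, limma), in the fit of the 12 samples alone (adjusted p = 0.000284) and with a replicate block on same-numbered samples of a day (adjusted p = 0.00643). THBS1, thrombospondin of platelets and stroma, was lower in CD43+ cells on day 6, at 1498, 1077 and 2106 against 6360, 9888 and 6244, and on day 9 all 3 CD43+ samples were at the highest value of 90700 against 29004, 8966 and 37170, so that its change of 4.37 is limited by the ceiling of the scale (adjusted p = 1.40e-05).

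**Figure D3:**
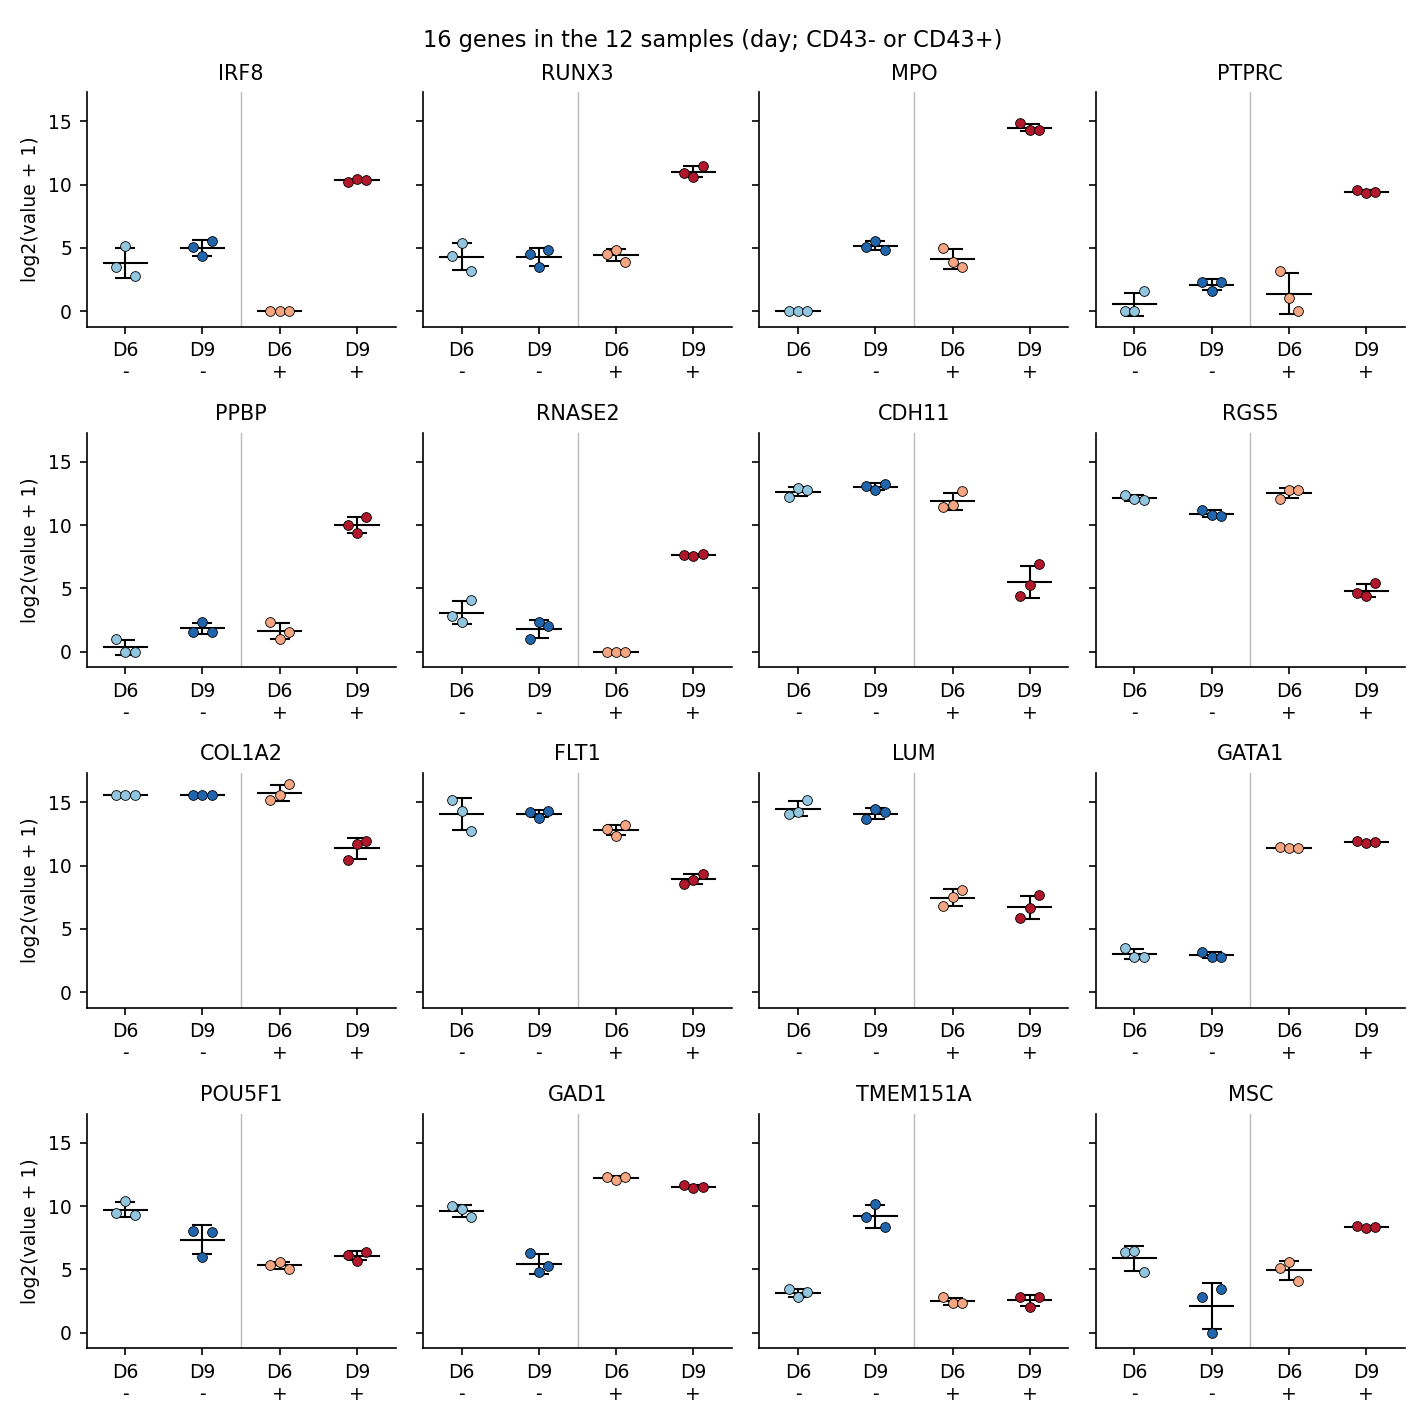
Each panel shows 1 gene in the 12 samples as log2(value + 1), with CD43- cells (D6 -, D9 -) left of the line and CD43+ cells (D6 +, D9 +) right of it, points for samples, and horizontal bars with whiskers for the mean and SD of 3. In the panels from IRF8 to RNASE2 the day 9 CD43+ samples lie above the others, in those from CDH11 to FLT1 they lie below the others, LUM and GATA1 differ between fractions on both days, POU5F1, GAD1 and TMEM151A move in CD43- cells, and MSC moves in both.

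Red cell genes were mostly high in CD43+ cells on day 6 already. All 11 haemoglobin genes, AHSP included, were called higher in CD43+ cells on both days (4.69% of all genes tested on day 6 and 8.65% on day 9). The change was called in 2 of the 11 (18.2%, against 3.21% of all genes), AHSP and HBM, and its median over the list was -0.06, with median steps of 1.55 in CD43+ and 1.30 in CD43- cells. HBE1, embryonic epsilon globin, was at 90700 in all 6 CD43+ samples, so that no rise could be seen there, while CD43- cells went from 32, 26 and 36 to 238, 164 and 130 (change -2.43, adjusted p = 0.0745, limma; 0.000374 in the fit of the 12 samples alone and 0.0210 with a replicate block on same-numbered samples of a day). The summed level of the 11 genes in CD43- cells was 122 to 133 on day 6 and 459 to 893 on day 9, against 122465 to 144311 and 186541 to 318005 in CD43+ cells, and the part of carried-over red cell RNA in these CD43- values was not tested. AHSP, the alpha globin chaperone, rose from 30, 24 and 13 to 486, 204 and 281 in CD43+ cells and was listed at 0 in all CD43- samples (adjusted p = 0.00224, and 0.0690 with a pseudocount of 0.1, limma). HBM was lost from the calls without day 6 CD43+ replicate 3 (change 1.92, against 2.42 with all samples) and with a pseudocount of 0.1 (change 1.62). The globin genes are near-identical in pairs, so that the division of reads among them is uncertain.

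None of 12 haem synthesis genes was called by limma, and 6 of them had an unadjusted p below 0.05. Red cell membrane genes had a median change of 0.71, and dematin DMTN and the anion exchanger SLC4A1 were among those that went up. SLC4A1 rose in both fractions, from 80, 96 and 48 to 8272, 1686 and 8797 in CD43+ cells and from 0 in all 3 samples to 5, 14 and 6 in CD43- cells. Its change (adjusted p = 0.0304) was called in 6 of the 12 fits that left out 1 sample and lost without D6_CD43neg replicate 2, D6_CD43pos replicate 3, D9_CD43neg replicate 1 or 3, or D9_CD43pos replicate 1 or 3 (2.58 to 3.77 over the 12 fits). With a pseudocount of 0.1 it turned to -0.13 (adjusted p = 0.967, limma). Of 14 erythroid regulators 2 went up (14.3%, against 3.21% of all genes), HEMGN and KLF1. GATA1 was at 2865, 2616 and 2677 on day 6 and 3858, 3487 and 3720 on day 9 in CD43+ cells (change 0.54, standard error 0.87, adjusted p = 0.733, limma). RUNX1, with 6910, 6575 and 7899 on day 6 and 5186, 5549 and 5029 on day 9 in CD43+ cells, was also not called (change -0.01, standard error 0.43, with either sign among the fits that left out 1 sample). HEMGN, a nuclear regulator of erythroid precursors, rose from 14, 8 and 1 to 794, 118 and 944 in CD43+ cells and was listed at 0 in all CD43- samples (adjusted p = 0.000158). The spread of its day 9 values was wide, and the lowest still exceeded the highest of day 6.

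Interferon-stimulated genes moved in both fractions. In CD43+ cells 12 of 23 rose (3.56% of all genes tested), and in CD43- cells 5 did (1.10%), while the change was called in 6 (26.1%, against 3.21% higher among all genes). MX1, an antiviral GTPase, rose from 4, 6 and 4 to 427, 418 and 414 in CD43+ cells and from 14, 20 and 10 to 193, 186 and 75 in CD43- cells (steps 6.23 and 3.21, change 3.02, standard error 0.63, adjusted p = 0.0012, limma). The day 9 CD43+ samples lay above the day 9 CD43- samples, and on day 6 below them. Of 13 MHC class II genes, HLA-DRA went up and HLA-DQB1 went down (15.4% called, against 7.39% of all genes). HLA-DRA reached 12, 16 and 10 in day 9 CD43+ cells from 0 in all 3 day 6 samples, and HLA-DQB1 fell there from 20, 24 and 36 to 4, 3 and 4. The call of HLA-DRA was lost with a pseudocount of 10 (change 1.26). Of other lists, 3 of 22 stem and progenitor factors, 2 of 16 haematopoietic cytokine receptors and 5 of 19 inflammatory cytokine and chemokine genes went up (13.6%, 12.5% and 26.3%, against 3.21% of all genes). Of the 5 inflammatory genes 2 kept the call in each fit that left out 1 sample, and 1 was called with a pseudocount of 0.1.

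DNA replication and mitosis genes leaned towards CD43+ cells without any call. The median change of 30 genes was 1.03, 29 of the 30 estimates were positive, and none passed both thresholds of the limma test, while 26 had an unadjusted p below 0.05 and 17 an adjusted p below 0.05 at a smaller size. MKI67 stood at 5635, 5190 and 5034 on day 6 and 8794, 8497 and 8497 on day 9 in CD43+ cells and at 2862, 4372 and 3682 on day 6 and 3484, 2236 and 3854 on day 9 in CD43- cells (change 0.91, standard error 0.32, adjusted p = 0.0452, limma). The median step of the list was 0.68 in CD43+ and -0.37 in CD43- cells. CDKN1C, the cyclin-dependent kinase inhibitor p57, went down (change -2.60, standard error 0.35, adjusted p = 6.22e-06). It went in CD43+ cells from 4894, 4652 and 5032 to 1956, 1654 and 2730 and in CD43- cells from 1485, 1633 and 2912 to 4422, 8264 and 3343, with each step below 4-fold. It and CDKN2C, which went up, were the called members among 13 D-type cyclins and cell cycle inhibitors. That was 15.4% of the list, against 7.39% of all genes.

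**Figure D4:**
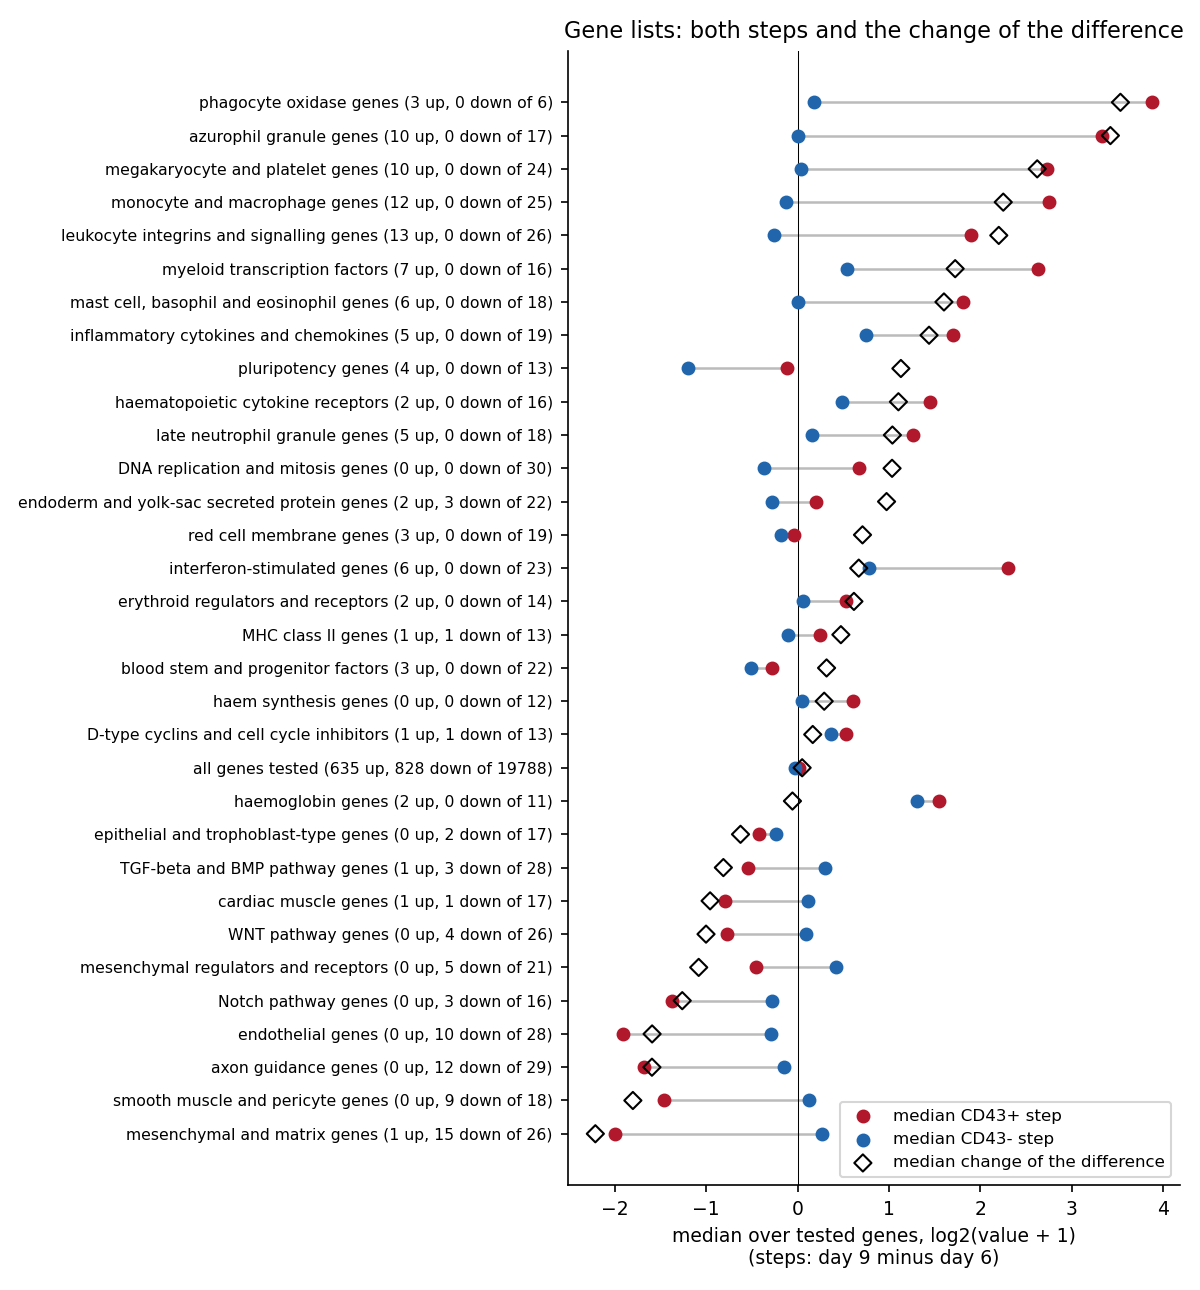
For each gene list, red and blue points give the median step from day 6 to day 9 in CD43+ and CD43- cells, and the open diamond the median change of the CD43 difference, as differences on the log2(value + 1) scale. The bracket after each name counts members called up and down. From the phagocyte oxidase list (3.53) down to the matrix list (-2.21), the red points of most lists move with the diamonds while the blue points stay nearer to 0. Exceptions include the pluripotency list, where blue moved to -1.20, and the interferon and haemoglobin lists, where both are above 0. In the stem and progenitor and the red cell membrane lists both are below 0, beside changes of 0.32 and 0.71. In the endoderm list blue (-0.28) lies farther from 0 than red (0.21).

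Among the 507 genes that fell on the CD43+ side, the largest changes by the rule of choice were those of CDH11, RGS5, HAPLN1, UNC5C, CX3CL1 and KCNH7. CDH11, the cadherin of mesenchymal cells (chr16:64943753-65126112), was at 2743, 3108 and 6460 in day 6 CD43+ cells, close to 4710, 7766 and 7152 in CD43- cells, and at 20, 37 and 119 in CD43+ against 8793, 6912 and 9886 in CD43- cells on day 9. On day 6 the fractions overlapped and on day 9 they were far apart (change -6.78, standard error 0.59, adjusted p = 1.39e-08, limma). RGS5, a G-protein regulator of pericytes (chr1:163111121-163321791), went from 4295, 6922 and 7165 to 24, 20 and 41 in CD43+ cells. It also moved down in CD43- cells, from 5254, 4332 and 3945 to 2362, 1754 and 1645, by less than 4-fold (steps -7.73 and -1.24, change -6.50, standard error 0.35, adjusted p = 1.98e-12). HAPLN1, a link protein of hyaluronan matrix (chr5:83637805-83721613), was at 12014, 22842 and 37186 on day 6 and 133, 140 and 294 on day 9 in CD43+ cells and at 29026, 25870 and 18772 on day 6 and 18772, 10840 and 14016 on day 9 in CD43- cells (change -6.17, standard error 0.48, adjusted p = 3.91e-09). All 3 genes were high in unsorted day 4 cells, at 11996, 12826 and 10075 for CDH11, 37190, 37190 and 22847 for RGS5 and 90700, 90700 and 48056 for HAPLN1. KCNH7, a voltage-gated potassium channel gene (chr2:162371407-162838730), was higher in CD43+ than in CD43- cells on day 6, at 114, 122 and 170 against 56, 34 and 27, and lower on day 9, at 1, 8 and 2 against 50, 80 and 40 (change -5.68, standard error 0.75, adjusted p = 5.79e-06).

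The matrix list held members that were already low in CD43+ cells on day 6 and members that fell there between days 6 and 9. On day 6, 18 of the 26 were called lower in CD43+ cells (7.85% of all genes tested). For the change, 15 of the 26 went down and 1 up (61.5% called, against 7.39% of all genes), 13 of the 16 kept the call in each fit that left out 1 sample, and the median change was -2.21 (CD43+ step -2.002, CD43- step 0.26). COL1A1 and COL1A2 encode the chains of type I collagen. COL1A1 was at 18751, 18751 and 37166 in day 6 CD43+ cells, overlapping 25836, 29000 and 37166 in CD43- cells, and fell to 1014, 1756 and 3568 while CD43- cells were at 48030, 48030 and 90700 (change -4.64, standard error 0.50, adjusted p = 3.85e-07, limma). COL1A2 was at 37186, 48056 and 90700 on day 6 and 1384, 3378 and 3860 on day 9 in CD43+ cells, and at 48056 in all 6 CD43- samples (change -4.38, standard error 0.43, adjusted p = 7.48e-08). FN1, fibronectin, was at 90700 in all CD43- samples, so that the size of its difference is limited by the ceiling, and fell in CD43+ cells from 13327, 22847 and 22847 to 424, 540 and 2938 (adjusted p = 7.98e-06).

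By contrast, LUM, DCN, POSTN and the mesenchymal homeobox gene PRRX1 were lower in CD43+ cells on both days, and their changes were not called. LUM, lumican, was at 110, 182 and 274 on day 6 and 56, 100 and 198 on day 9 in CD43+ cells, against 17368, 18772 and 37186 on day 6 and 12848, 22842 and 18772 on day 9 in CD43- cells (change -0.38, standard error 0.75, adjusted p = 0.782, limma). POSTN, periostin, gave a change of 0.10 (standard error 0.50), whose sign varied among the fits that left out 1 sample, and PRRX1 of -0.63 (standard error 0.86). DCN, decorin, moved by similar amounts in both fractions, with steps of 1.92 in CD43+ and 2.44 in CD43- cells, which gave a change of -0.53 (standard error 0.60). The only matrix gene that went up was LOX, the collagen cross-linking lysyl oxidase, which rose in CD43+ cells from 70, 73 and 92 to 850, 1206 and 1531 beside 744, 800 and 3282 on day 6 and 1905, 3262 and 2480 on day 9 in CD43- cells (change 2.89, standard error 0.60, adjusted p = 0.00102). The summed level of 10 mesenchymal markers went from 58879 to 155294 in day 6 CD43+ samples to 4272 to 21969 on day 9, and from 198521 to 247335 to 241038 to 288748 in CD43- samples. In day 6 CD43+ samples COL1A1 and COL1A2 made up most of that sum, and these were the only 2 of the 10 called. The median change of the 10 markers was -0.90, with a median CD43+ step of -0.44. None of the 10 was at 0 in all 3 samples of any population, and the part of carried-over mesenchymal cells in the day 6 CD43+ values was not tested.

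Endothelial genes went down in 10 of 28 cases (35.7%, against 4.18% of all genes), through the CD43+ side each time, with a median change of -1.59. Of the 10, 7 kept the call in each fit that left out 1 sample. FLT1, a VEGF receptor, fell from 7622, 5186 and 9227 to 380, 473 and 649 in CD43+ cells and was at 37162, 20387 and 6688 on day 6 and 18748, 13994 and 20387 on day 9 in CD43- cells (change -3.89, standard error 0.47, adjusted p = 1.95e-06, limma). CDH5, VE-cadherin of endothelial junctions, fell from 5644, 4481 and 6144 to 440, 457 and 584 in CD43+ cells against 25876, 10844 and 5254 on day 6 and 12854, 5198 and 7038 on day 9 in CD43- cells (change -2.90, standard error 0.52, adjusted p = 0.000261). SOX7, an endothelial SOXF factor, had steps of -5.04 in CD43+ and -1.32 in CD43- cells, which gave a change of -3.72 (standard error 0.51, adjusted p = 8.62e-06). PECAM1, which platelets and leukocytes also carry, stayed at 5704, 5314 and 5641 on day 6 and 4078, 4116 and 4329 on day 9 in CD43+ cells and did not pass the test (change -0.70, standard error 0.49, adjusted p = 0.348). The day 6 CD43- samples themselves differed widely. The summed level of 10 endothelial markers ran from 36931 to 119520 among them, against 34712 to 44952 in day 6 CD43+, 48703 to 82843 in day 9 CD43- and 13019 to 16420 in day 9 CD43+ samples. The lowest of the day 6 CD43- samples was replicate 3, and without it KDR (-1.63), MMRN2 (-1.46) and ROBO4 (-1.83) were not called. These genes also lost the call without other samples, day 9 CD43- replicate 1 among them for each. KDR was lost in 4 of the 12 fits, MMRN2 in 4 and ROBO4 in 7, and ROBO4 also with a pseudocount of 0.1 (adjusted p = 0.0574, limma).

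**Figure D5:**
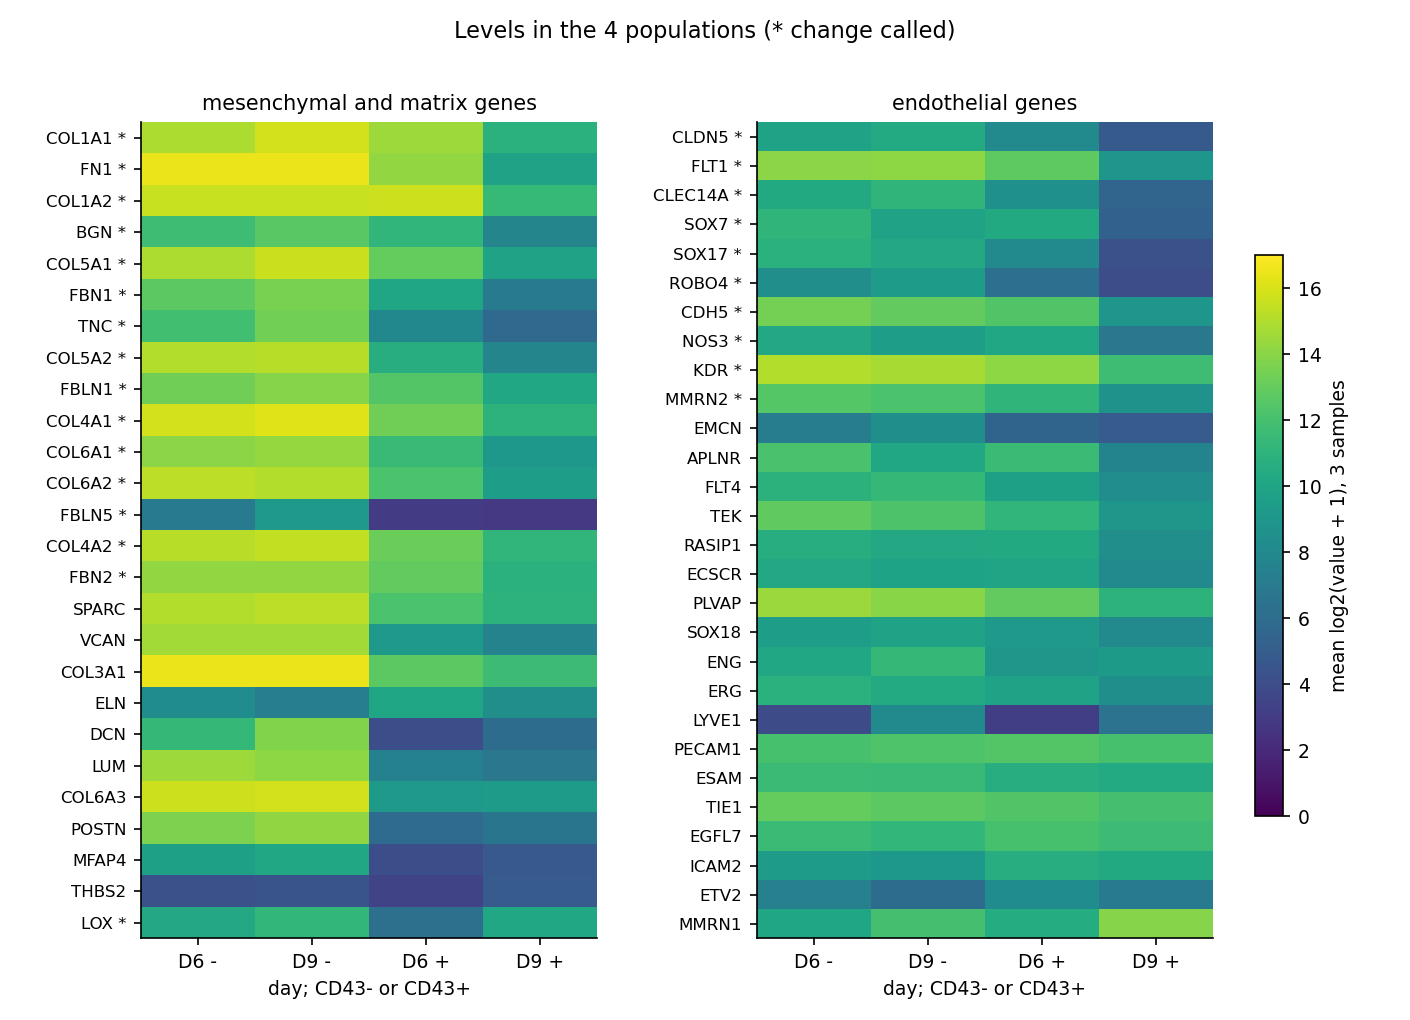
Colour gives the mean log2(value + 1) of 3 samples for the matrix list (left) and the endothelial list (right) in the 4 populations, with genes ordered by their change from the lowest at the top, and an asterisk after each gene whose change was called. COL1A1, FN1 and COL1A2 at the top left are bright in day 6 CD43+ cells and darker on day 9, while LUM, DCN and POSTN are already dark on day 6, and PECAM1 on the right keeps its level.

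Signalling genes of vessels and axons also went down, mostly through the CD43+ side. Among 16 Notch pathway genes 3 went down (18.8%, against 4.18% of all genes), including the ligand DLL4 and the target HEY1. DLL4 fell from 1518, 1168 and 1296 to 36, 67 and 182 in CD43+ cells beside 9493, 6068 and 2370 on day 6 and 5130, 3322 and 3819 on day 9 in CD43- cells (change -3.74, standard error 0.71, adjusted p = 0.000463, limma). HEY1 changed by -2.67 (standard error 0.60). Of 29 axon guidance genes 12 went down (41.4%, against 4.18% of all genes), 9 of them through the CD43+ side, with a median change of -1.59. With a pseudocount of 10, 8 of the 12 were called. UNC5C, a netrin receptor (chr4:95162504-95549206), fell from 758, 1315 and 1618 to 13, 36 and 56 in CD43+ cells and was at 1015, 2340 and 1530 on day 6 and 2692, 1358 and 4378 on day 9 in CD43- cells (change -5.96, standard error 1.01, adjusted p = 0.000123). Of 18 smooth muscle and pericyte genes 9 went down (50%, against 4.18% of all genes), with a median change of -1.80.

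Among 28 TGF-beta and BMP pathway genes 3 went down (4.18% among all genes) and NOG, the secreted BMP antagonist noggin, went up. NOG rose from 4, 3 and 3 to 188, 142 and 210 in CD43+ cells and was at 209, 342 and 270 on day 6 and 258, 264 and 221 on day 9 in CD43- cells, so that a large day 6 difference shrank (change 5.49, standard error 0.52, adjusted p = 6.14e-08, limma). Of 21 mesenchymal regulators 5 went down (23.8%, against 4.18% of all genes), with the median at -1.08. With a pseudocount of 10, 3 of the 5 were called. SNAI2, the transcription factor Slug, fell from 192, 259 and 432 to 4, 14 and 30 in CD43+ cells (change -4.15, standard error 0.73, adjusted p = 0.000193, limma). Of 26 WNT pathway genes 4 went down (15.4% called, against 7.39% of all genes called either way), and 1 of the 4 kept the call in each fit that left out 1 sample. Of 22 endoderm and yolk-sac genes 3 went down and 2 up (22.7% called, against 7.39% of all genes). Of these, 2 were called with a pseudocount of 0.1. Of 17 epithelial and trophoblast-type genes 2 went down, and of 17 cardiac muscle genes 1 went down and 1 up. In each of these 2 lists 11.8% was called, against 7.39% of all genes.

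The CD43- side accounted for 133 genes, 41 of which fell in CD43- cells and so went up, and 92 of which rose in CD43- cells and so went down. Pluripotency genes were the list whose called members all lay on this side. Of 13 pluripotency genes tested, 4 went up (NANOG, POU5F1, ZSCAN10 and UTF1), all through the CD43- side (30.8%, against 3.21% higher among all genes), with a median step of -1.20 in CD43- and -0.12 in CD43+ cells. POU5F1, the OCT4 gene (chr6:31164337-31180731), went from 712, 1328 and 618 to 267, 63 and 251 in CD43- cells, and was at 40, 47 and 32 on day 6 and 70, 50 and 83 on day 9 in CD43+ cells. The day 9 CD43- samples lay below those of day 6 and overlapped the day 9 CD43+ samples (change 3.10, standard error 0.77, adjusted p = 0.00537; CD43- step -2.36, limma). POU5F1 has near-identical processed copies, so that its values carry that uncertainty. NANOG fell in CD43- cells from 83, 174 and 76 to 25, 8 and 12, beside 0, 4 and 6 on day 6 and 4, 4 and 4 on day 9 in CD43+ cells. Its change of 3.46 was lost from the calls without day 6 CD43+ replicate 1 (2.60) and with a pseudocount of 0.1 (adjusted p = 0.0981, limma). ZSCAN10 was lost without day 6 CD43- replicate 3 (1.89) or day 9 CD43+ replicate 3 (1.95). UTF1 was lost without any of the day 6 CD43+ samples, day 6 CD43- replicates 1 or 2, day 9 CD43- replicate 2 or day 9 CD43+ replicate 1 (2.19 to 3.26 over the 12 fits). POU5F1 was called in all 12. ZSCAN10 and UTF1 were also lost with a pseudocount of 0.1 (adjusted p = 0.180 and 0.0960, limma) and with one of 10 (changes 1.92 and 1.59), so that 1 of the 4 genes was called at 0.1 and 2 at 10.

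By the rule of choice the genes lost from CD43- cells were FGF19, VENTX, FIBCD1, ALDH1A1, GLP1R and GAD1. FGF19, a secreted growth factor (chr11:69698232-69704642), went from 64, 122 and 204 to 1, 2 and 0 in CD43- cells and was at 0, 0 and 3 on day 6 and 0, 1 and 0 on day 9 in CD43+ cells, so that the day 6 difference closed (change 5.69, standard error 1.06, adjusted p = 0.000363, limma). VENTX, a homeobox gene of ventral mesoderm and myeloid cells (chr10:133237404-133241929), went from 58, 100 and 90 to 20, 6 and 8 in CD43- cells while CD43+ cells moved from 27, 32 and 30 to 160, 78 and 126, so that the order of the fractions turned (change 4.83, standard error 0.50, adjusted p = 2.08e-07). VENTX thus moved on both sides, and its rise in CD43+ cells stayed just below 4-fold. GAD1, glutamate decarboxylase (chr2:170813213-170861151), was higher in CD43+ cells on both days, at 4962, 4292 and 5040 on day 6 and 3190, 2808 and 2896 on day 9, and its difference grew as CD43- cells went from 998, 870 and 554 to 76, 26 and 38 (change 3.497, standard error 0.71, adjusted p = 0.000857).

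ALDH1A1, a retinaldehyde dehydrogenase (chr9:72900662-73080442), moved apart on both sides, from 115, 144 and 207 to 65, 16 and 36 in CD43- cells and from 1344, 948 and 1226 to 3490, 6071 and 2578 in CD43+ cells, although only the CD43- step passed 4-fold. GLP1R, the GLP-1 receptor (chr6:39048798-39087743), was at 40, 24 and 11 in day 6 CD43- cells, was listed at 0 in those of day 9, and stayed at 224, 158 and 158 on day 6 and 112, 82 and 106 on day 9 in CD43+ cells. FIBCD1, a chitin-binding receptor (chr9:130902438-130939286), went from 154, 54 and 40 to 6, 16 and 4 in CD43- cells. The change of FIBCD1, 4.23, is larger than that fall on the log2 scale, so that its level rose in CD43+ cells too, by less than 4-fold. Adjusted p-values of the change were 9.05e-05, 3.85e-05 and 2.06e-05 (limma), and GLP1R was not called with a pseudocount of 10 (change 0.94). KLF1, a blood gene, was also placed here, as CD43- cells went from 20, 34 and 44 to 6, 8 and 2, while CD43+ cells held 3108, 2804 and 2530 on day 6 and 2612, 1828 and 2074 on day 9. Its change of 2.10 (adjusted p = 0.0189) ran from 1.63 to 2.42 and was lost without D6_CD43neg replicate 3, D9_CD43neg replicate 3 or D9_CD43pos replicate 1, and with a pseudocount of 10 (1.07). GATA1 in the same CD43- cells was at 10, 6 and 6 on day 6 and 8, 6 and 6 on day 9.

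Genes gained by CD43- cells were, by the same rule, TMEM151A, SLC5A12, CYP2W1, SPHKAP, LRRN3 and LAMA2. TMEM151A, a membrane protein gene (chr11:66291870-66296664), went from 10, 6 and 8 to 546, 1138 and 326 in CD43- cells and stayed at 6, 4 and 4 on day 6 and 6, 3 and 6 on day 9 in CD43+ cells. The 3 day 9 CD43- samples stood alone above the other 9, with a CD43- step of 6.06 and a CD43+ step of 0.05 (change -6.001, standard error 0.73, adjusted p = 1.87e-06, limma). LAMA2, the laminin alpha 2 chain of basement membranes (chr6:128883141-129516569), rose in CD43- cells from 52, 48 and 37 to 613, 202 and 976, beside 32, 36 and 42 on day 6 and 20, 16 and 30 on day 9 in CD43+ cells (change -4.17, standard error 0.62, adjusted p = 2.46e-05). On day 12, CD43- cells stood at 2981, 5316 and 5706, above all samples of day 9, and CD43+ cells at 62, 38 and 64.

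SLC5A12, a lactate transporter (chr11:26667019-26723427), rose from 28, 26 and 60 to 1122, 1509 and 208 in CD43- cells. CYP2W1, a cytochrome P450 (chr7:983199-989640), rose from 14, 10 and 12 to 405, 724 and 254. LRRN3, a leucine-rich repeat neuronal protein (chr7:111091006-111125454), rose from 22, 22 and 20 to 325, 281 and 858, and SPHKAP, an anchoring protein for protein kinase A (chr2:227979950-228181645), from 1, 2 and 6 to 34, 255 and 32. In all 4 the 3 day 9 values exceeded the 3 of day 6, and no CD43+ step was called. Both follow from the rule by which these genes were chosen. Their changes were -4.97, -4.50, -4.24 and -4.46, with adjusted p-values of 0.000259, 0.00649, 0.000224 and 0.00462 (limma). CYP2W1 was not called with a pseudocount of 0.1 (adjusted p = 0.109).

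In 14 genes both sides moved past 4-fold in opposite directions. Those that met the rule were MSC, C16orf54 and ABCC3, which rose in CD43+ and fell in CD43- cells, and SLC7A4, HS6ST2 and NGFR, which did the reverse. MSC, the bHLH repressor musculin, went from 34, 46 and 16 to 333, 306 and 332 in CD43+ and from 80, 88 and 26 to 6, 0 and 10 in CD43- cells (steps 3.42 and -3.77, change 7.19, standard error 1.35, adjusted p = 0.000415, limma). C16orf54, a membrane protein gene (chr16:29742463-29746006), went from 42, 43 and 22 to 342, 418 and 288 in CD43+ and from 10, 16 and 12 to 0, 1 and 1 in CD43- cells (change 6.38, standard error 0.51). ABCC3, an efflux transporter of organic anions (chr17:50634777-50692252), went from 50, 42 and 40 to 668, 317 and 668 in CD43+ and from 30, 28 and 38 to 6, 4 and 3 in CD43- cells (change 6.20, standard error 0.58). In these genes the fractions lay closer together on day 6 than on day 9.

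NGFR, the low-affinity nerve growth factor receptor of neural crest and mesenchymal cells (chr17:49495293-49515017), fell from 108, 76 and 46 to 20, 8 and 24 in CD43+ cells and rose from 107, 138 and 72 to 434, 614 and 556 in CD43- cells (change -4.49, standard error 0.58, adjusted p = 3.97e-06, limma). HS6ST2, a heparan sulfate sulfotransferase (chrX:132626016-132961395), was higher in CD43+ cells on day 6, at 355, 412 and 464 against 142, 254 and 64, and lower on day 9, at 40, 47 and 38 against 632, 1108 and 526 (change -5.70, standard error 0.55). SLC7A4, a solute carrier gene (chr22:21028718-21032840), changed by -6.29 (standard error 0.80), with 64, 35 and 96 on day 6 and 7, 4 and 20 on day 9 in CD43+ and 22, 40 and 20 on day 6 and 295, 518 and 228 on day 9 in CD43- cells.

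A smaller group of differences was called on day 6 and smaller on day 9. The following 3 genes were chosen after their values were seen. RGS1, a G-protein regulator of leukocytes, rose in CD43+ cells from 4, 4 and 4 to 451, 314 and 287, within the range of CD43- cells on day 9, 130, 810 and 69 beside 148, 155 and 695 on day 6 (change 6.48, standard error 1.05, adjusted p = 7.33e-05, limma). SPP1, osteopontin, rose from 24, 13 and 4 to 264, 274 and 322 in CD43+ cells while CD43- cells had 400, 736 and 51 on day 6 and 92, 60 and 230 on day 9, so that all 3 CD43+ samples lay below the CD43- samples on day 6 and above them on day 9 (change 5.76, standard error 1.22, adjusted p = 0.00135). CNTNAP5, a neuronal contactin-associated protein gene, was present in day 6 CD43+ cells at 108, 207 and 230 and otherwise low, at 3, 6 and 1 in day 6 CD43-, and on day 9 at 6, 10 and 16 in CD43+ and 8, 7 and 17 in CD43- cells (change -5.50, standard error 0.71, adjusted p = 3.97e-06).

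Near the threshold, the 3 called genes closest to it were TTC39A, RND1 and SSC5D, with changes of -2.004, -2.004 and -2.005, and the 3 closest outside were KCNAB2 at 1.998, PRKD1 at -1.996 and FRRS1L at -1.9935. In 215 of the 1463 genes at least 1 population was listed at 0 in its 3 samples, and for these the size of the estimate depends on the pseudocount.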

How the data were processed

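The deposited values, GC-normalized tag counts, were made by the authors from RNA sequencing reads with bowtie2 and RSEM against an Ensembl annotation, then put through EDASeq to level out GC content inside each sample and the distributions of all samples. The deposited GC percent of each gene, which the authors listed beside the values, was not used in any test. The submitters' processing notes also name bcl2fastq and STAR 2.7, and hg38. Sequencing was done at 2 companies; which samples went to which is not given in the sources used here. The deposited unit is treated as a normalized score, since the values are neither raw counts nor a per-million unit, so no count test was run and depth is unknown.

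All 33 replicated samples entered a single linear model of log2(value + 1), with moderated variances that follow a trend and no replicate block (limma 3.58.1 under R 4.3.3). A gene was tested if 3 or more of these samples reached 10 (19788 of 20255). Tests were two-sided. The change of the CD43 difference, both steps and the differences on single days were contrasts of that fit, and a call needed more than 4-fold and an adjusted p (Benjamini-Hochberg) under 0.05. The p-values measure the spread between the samples of 1 cell line. The procedure was tested on simulated data. Alternatives were pseudocounts of 0.1 and 10, other filters, quantile and median-of-ratios scaling, a fit of the 12 samples, replicate blocks, other variance settings, protein-coding genes only, a 2-fold threshold and leaving out each sample. Gene types came from GENCODE by Ensembl identifier and promoters from RefSeq by symbol.

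Members, gene lists, markers and alternatives were chosen with earlier results of these data known. Genes were named when they were in 1 of 31 lists or the marker lists, or when they were among the 6 largest changes in each direction within a side class, taken over protein-coding genes with a mean of at least 100 in 1 of the 4 populations and day 9 values that did not overlap day 6 in the side called. Genes at a threshold and those said to be chosen after their values were seen are exceptions. Strand use in the counting is not given in the sources used here, so genes overlapping an antisense gene are uncertain. No 2 samples were identical. Some genes of the lists are not reported here by name.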

Additional observations from a re-analysis of the deposited data

Results flagged for a closer look

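The difference between CD43+ and CD43- cells changed between days 6 and 9 in 1463 genes by the interaction term of the limma fit, which is the comparison itself. Among genes named by rule, those whose CD43 difference went up had changes on the log2(value + 1) scale of 9.52 for PRTN3, 9.16 for IRF8, 8.94 for RNASE2, 8.14 for PF4V1, 8.08 for FGD2, 7.86 for CLC, 7.19 for MSC, 6.38 for C16orf54, 6.20 for ABCC3, 5.69 for FGF19, 4.83 for VENTX, 4.23 for FIBCD1, 3.84 for ALDH1A1, 3.69 for GLP1R and 3.497 for GAD1. Those whose difference went down had changes of -6.78 for CDH11, -6.50 for RGS5, -6.29 for SLC7A4, -6.17 for HAPLN1, -6.001 for TMEM151A, -5.96 for UNC5C, -5.70 for CX3CL1, -5.70 for HS6ST2, -5.68 for KCNH7, -4.97 for SLC5A12, -4.50 for CYP2W1, -4.49 for NGFR, -4.46 for SPHKAP, -4.24 for LRRN3 and -4.17 for LAMA2. Where a population was listed at 0, as for IRF8, RNASE2, PF4V1 and CLC, the size depends on the pseudocount. Groups of 3 were not tested for outlying samples.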

How the results depend on the processing

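The counts depended mainly on the pseudocount and the fold threshold. With a pseudocount of 10, 869 genes changed their difference (387 higher, 482 lower), 774 had a called CD43+ step and 153 a called CD43- step, and 573 lay on the CD43+ side and 70 on the CD43- side. With a 2-fold threshold these numbers were 2476 (1053 and 1423), 3208, 746, 1738 and 217. Requiring a value of at least 100 in 3 samples left 87 genes on the CD43- side. Leaving out 1 of the 12 samples gave 1248 to 1421 changed genes (558 to 621 higher, 690 to 846 lower), 1368 to 1563 CD43+ steps, 302 to 362 CD43- steps, and 824 to 970 and 106 to 136 genes on the CD43+ and CD43- sides. The other alternatives stayed within 1.5 times the counts given, and the CD43+ side held 62.2% to 70.2% of changed genes wherever it was computed. Quantile normalization could only return the main counts (1463 changed genes), since every sample already ran over the same set of numbers. Of 190 called genes followed singly, 145 kept the call in every fit that left out 1 sample and 112 under every setting. SLC4A1 reversed, to -0.13, with a pseudocount of 0.1. Among genes not called, the estimates changed sign in fits that left out 1 sample for HBZ (-0.33 to 0.86), POSTN (-0.22 to 0.39), RUNX1 (-0.22 to 0.41) and LUM (-0.85 to 0.0556).

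A replicate block on same-numbered CD43+ and CD43- samples of a day gave 1574 changed genes (671 higher, 903 lower), and a block on the number over all samples gave 1464. Deviations of same-numbered samples had correlations of 0.109 to 0.199 for day 6 and 0.0165 to 0.0782 for day 9. Not every pair exceeded 0.1, so the samples were treated as sharing only a number, although the 3 pairs of day 6 did exceed it. Steps between days could not be blocked by pairs within a day. With the first of these blocks, HBE1 and PF4 were called (adjusted p = 0.0210 and 0.00643, limma).

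The ceiling at 90700, the identical value distribution of all samples and the unknown depth limit what can be said of very high and very low genes. Near 0 the size of a change depends on the pseudocount. The cause of the changes under other settings was not tested.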
